A study of Mus musculus with 6 samples.

Results

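The 10 genes described here encode the proteins that fold the progesterone receptor and that help it activate its target genes: the HSP90 genes Hsp90aa1 and Hsp90ab1, the cochaperones Ptges3 and Stip1, the immunophilins Fkbp4 and Fkbp5, the p160 coactivators Ncoa1, Ncoa2 and Ncoa3, and the coactivator Ncoa6. They were chosen by name, and all 10 were found among the 56748 genes measured and had enough counts to be tested. RNA came from the mouse uterus on day 4 of pregnancy at 1600 h. One group of 3 libraries, titled Control, carries the genotype label WT, and the other group of 3, titled Zip10 cKO, carries a conditional knockout of the zinc importer gene Slc39a10 (Zip10) in the uterus. The series title asks about progesterone responsiveness. The labels do not name the Cre driver, the deleted exons or the age of the mice, and do not say whether each library came from a separate animal, so each p-value reflects the spread among these libraries alone, which may be technical.

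Steroid receptors such as the progesterone receptor are held ready for hormone by HSP90. STIP1 (also called HOP) bridges HSP70 and HSP90 while the receptor is handed over, and PTGES3 (p23) stabilises the mature complex. The immunophilins FKBP4 (FKBP52) and FKBP5 (FKBP51) compete for the same HSP90 docking site: FKBP4 raises receptor activity, FKBP5 lowers it, and Fkbp5 is itself induced by progesterone, glucocorticoids and androgens. Once hormone is bound, p160 coactivators dock on the receptor and recruit histone acetyltransferases and methyltransferases, and NCOA6 belongs to a complex that methylates histone H3. Female mice without Fkbp4 are infertile because the uterus does not respond properly to progesterone, and uterine Ncoa2 and Ncoa6 are also needed for implantation.

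The total of expected counts ranged from 19643069 to 22809574 per library. Slc39a10, the targeted gene, was at 54.6, 70.4 and 66.2 CPM (counts relative to the library total, corrected for library composition by TMM) in Control 1, 2 and 3 and at 39.5, 72.5 and 79.8 CPM in Zip10 cKO 1, 2 and 3. The groups overlapped, and because reads from exons that remain are counted too, the genotype labels cannot be checked from it. Zip10 cKO 1 stood apart from the other libraries on the first axis of a multidimensional scaling of all genes, at -1.58 against -0.02 to 0.77. The members' fold changes and ratios were also computed without it.

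No difference between the groups passed the test for any of the 10 genes. At a threshold of 0.05 on the adjusted p, edgeR's quasi-likelihood test called 0 of the 10, as it called 0% of all 16737 genes tested, of which 1081 (6.46%) had an unadjusted p under 0.05. Of the members, 1 of 10 had an unadjusted p under 0.05: Fkbp4, which was lower, as were 1.98% of all genes at that level. In the higher direction it was 0 of 10 members beside 4.48% of all genes. By sign of the estimate alone, 5 members were lower and 5 higher. The median of their log2 fold changes was -0.04 beside 0.00 over all genes tested. The 5 lower estimates were those of the HSP90 genes, both cochaperones and Fkbp4, and the 5 higher ones those of Fkbp5 and the 4 coactivators. For no member did the 3 Zip10 cKO libraries lie entirely on one side of the 3 controls, as they did above for 6.93% and below for 5.78% of all genes. The plot of fold changes with their intervals shows both sets.

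**Figure D1:**
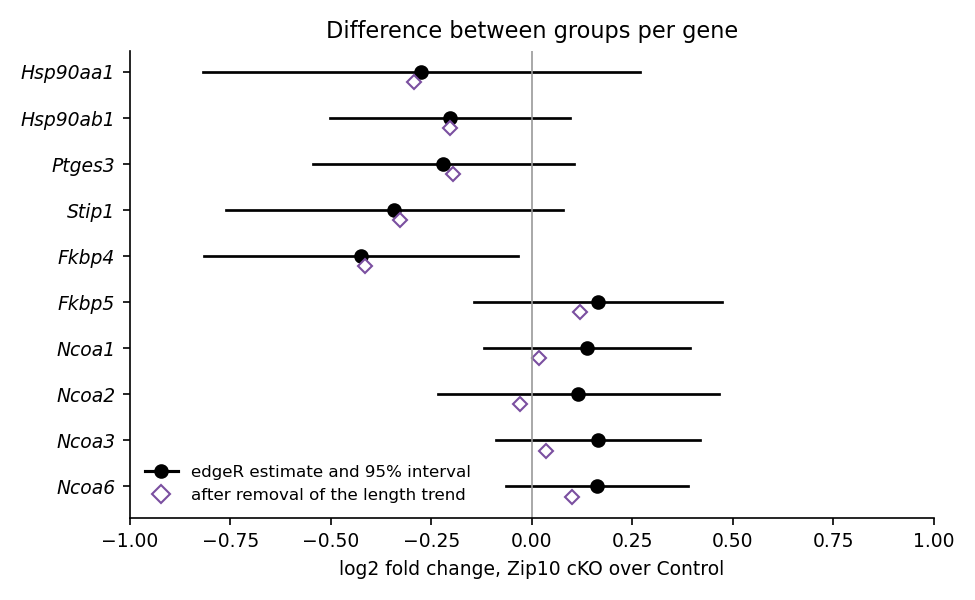
Log2 fold change of Zip10 cKO over Control for each gene (x axis), as the edgeR estimate with its 95% interval (black circles and lines) and after removal of each library's trend with gene length (open diamonds). All intervals include 0 except that of Fkbp4 (-0.82 to -0.03), and the diamonds of Ncoa1, Ncoa2 and Ncoa3 lie near 0.

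Per unit of length, the chaperones were far more abundant than the coactivators. In deposited TPM (a share of all transcripts that corrects for gene length), Hsp90ab1, the constitutive cytosolic HSP90, ranged from 1086 to 1514 over the 6 libraries. The stress-inducible Hsp90aa1 followed at 262 to 575 TPM. Fkbp4 was at 154 to 274 TPM, Ptges3 at 152 to 227 TPM and Stip1 at 90.5 to 173 TPM. Pgr, the receptor gene itself, lay below these at 27.3 to 51.1 TPM. Ncoa6 ranged from 20.4 to 27.04 TPM and Fkbp5 from 17.6 to 24.3 TPM, while Ncoa2 (9.10 to 17.3 TPM), Ncoa3 (8.59 to 15.8 TPM) and Ncoa1 (8.86 to 12.7 TPM) were lowest. In this order Hsp90ab1 stood clear of Hsp90aa1, Stip1 of Pgr, Pgr of Ncoa6 (by 27.33 against 27.04 TPM) and Fkbp5 of Ncoa2 (by 17.6 against 17.3 TPM), and all other neighbours overlapped.

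**Figure D2:**
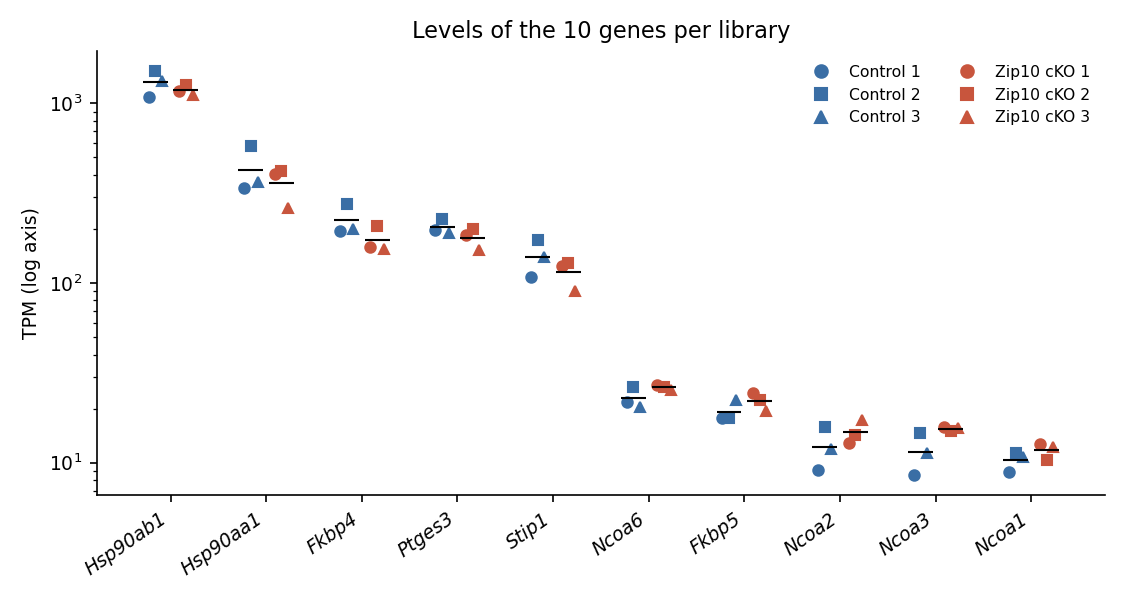
Deposited TPM (log axis) of the 10 genes in each of the 6 libraries, with bars at the group means. Hsp90ab1 lies at 1086 TPM or more in every library and the p160 coactivators at 17.3 TPM or less, and the Control and Zip10 cKO points overlap for every gene except Ncoa3.

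Hsp90ab1 was at 2068, 2629 and 2338 CPM in Control 1, 2 and 3 and at 1958, 2259 and 1897 CPM in Zip10 cKO 1, 2 and 3. Control 2 was the highest library and Zip10 cKO 3 the lowest, and the groups overlapped. Its log2 fold change was -0.20 ± 0.13 (SE, n = 3 each, edgeR quasi-likelihood adjusted p = 0.762), an interval of 0.707-fold to 1.07-fold, and with 1 library left out it ran from -0.29 to -0.11, the latter without Control 2. Hsp90aa1, whose protein is made in larger amounts under heat shock, was at 762, 1186 and 771 CPM in the controls and at 821, 893 and 534 CPM in Zip10 cKO 1, 2 and 3. Here too Control 2 stood highest and Zip10 cKO 3 lowest, while the other 4 libraries of both groups lay between 762 and 893 CPM. Its log2 fold change was -0.27 ± 0.24 (SE, edgeR quasi-likelihood adjusted p = 0.803), and with 1 library left out it ran from -0.42 without Zip10 cKO 2 to -0.08 without Zip10 cKO 3 and -0.03 without Control 2. The expected count of Hsp90aa1 was not a whole number in any of the 6 libraries, which shows that RSEM split some of its reads with other genes, so its values carry that uncertainty. Those of Hsp90ab1 were whole in all 6.

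The balance of the 2 HSP90 genes varied within the groups more than between them. The ratio of Hsp90aa1 to Hsp90ab1 in TPM was 0.312, 0.380 and 0.276 in the controls and 0.345, 0.330 and 0.236 in Zip10 cKO 1, 2 and 3. The difference in log2 ratio was -0.10 (exact two-sided permutation p = 0.7, adjusted p = 0.8 over the 4 ratios tested, where 3 against 3 cannot go below 0.1), and its sign turned without Control 2 (0.03) or without Zip10 cKO 3 (0.08).

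Stip1 was at 172, 253 and 207 CPM in the controls and at 175, 193 and 130 CPM in Zip10 cKO 1, 2 and 3. Zip10 cKO 1 and 2 fell within the range of the controls and Zip10 cKO 3 lay below it. The log2 fold change was -0.34 ± 0.18 (SE, n = 3 each, edgeR quasi-likelihood adjusted p = 0.754), with an interval from 0.590-fold to 1.055-fold, and with 1 library left out it ran from -0.48 without Control 1 to -0.19 without Control 2 or Zip10 cKO 3. Ptges3 was at 274, 294 and 247 CPM in the controls and at 240, 269 and 190 CPM in Zip10 cKO 1, 2 and 3. Zip10 cKO 2 lay within the control range and the other Zip10 cKO libraries below it. Its log2 fold change was -0.22 ± 0.14 (SE, edgeR quasi-likelihood adjusted p = 0.762), and it was -0.34 without Zip10 cKO 2 and -0.09 without Zip10 cKO 3.

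Fkbp4 had the largest estimate of the 10 genes. It was at 323, 425 and 316 CPM in Control 1, 2 and 3 and at 237, 325 and 232 CPM in Zip10 cKO 1, 2 and 3. Zip10 cKO 1 and 3 lay below every control, whereas Zip10 cKO 2 lay just above Control 1 and Control 3. Controls averaged 355 ± 61.2 CPM and Zip10 cKO libraries 264 ± 52.3 CPM (SD, n = 3 each). The log2 fold change was -0.42 ± 0.17 (SE), or 0.745-fold with an interval from 0.568 to 0.977. This did not pass the adjustment over all genes (edgeR quasi-likelihood adjusted p = 0.747). With 1 library left out the estimate ran from -0.60 without Zip10 cKO 2 to -0.27 without Control 2. Its unadjusted p stayed under 0.05 without Control 1, Control 3 or Zip10 cKO 2. It was no longer under 0.05 without Control 2, Zip10 cKO 1 or Zip10 cKO 3, or on the TPM scale.

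Fkbp5 varied in another way. It was at 46.9, 43.0 and 55.6 CPM in the controls and at 58.6, 58.3 and 46.3 CPM in Zip10 cKO 1, 2 and 3. Control 2, the highest library for Fkbp4, was the lowest for Fkbp5, and Zip10 cKO 3 was again on the low side. The log2 fold change was 0.17 ± 0.14 (SE, n = 3 each, edgeR quasi-likelihood adjusted p = 0.795), an interval from 0.905-fold to 1.39-fold, and it ran from 0.09 without Control 2 to 0.27 without Zip10 cKO 3.

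The ratio of Fkbp5 to Fkbp4 sets the inhibitory against the activating immunophilin and does not depend on how libraries are scaled. In TPM it was 0.0917, 0.0643 and 0.111 in the controls and 0.153, 0.108 and 0.126 in Zip10 cKO 1, 2 and 3, so Fkbp4 transcripts outnumbered those of Fkbp5 in all 6 libraries. Zip10 cKO 1 and 3 lay above all controls and Zip10 cKO 2 lay just under Control 3. The geometric means were 0.0868 and 0.128, a difference in log2 ratio of 0.55 (exact two-sided permutation p = 0.2, adjusted p = 0.6 over 4 ratios). It was 0.34 without Control 2 and between that and 0.73, its value without Control 3, with each other library left out. In CPM, which is not divided by gene length, the groups did not overlap in this ratio. The difference in log2 ratio was 0.59 there (exact two-sided permutation p = 0.1, the lowest that 3 against 3 allows, not adjusted). Relative to the receptor, Fkbp4 was at 7.09, 5.37 and 5.53 transcripts per Pgr transcript in the controls and at 3.87, 5.54 and 4.37 in Zip10 cKO 1, 2 and 3. The groups overlapped only through Zip10 cKO 2, with a difference in log2 ratio of -0.39 (exact two-sided permutation p = 0.3, adjusted p = 0.6 over 4 ratios). With 1 library left out it ran from -0.53 without Zip10 cKO 2 to -0.26 without Control 1. These ratios were chosen with the Fkbp4 estimate known.

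The 5 genes of the HSP90 machine shared their highest and their lowest library. For Hsp90aa1, Hsp90ab1, Ptges3, Stip1 and Fkbp4 alike, Control 2 was the highest and Zip10 cKO 3 the lowest of the 6 libraries, an order held by 2.37% of all genes tested. Their mean log2 CPM, relative to the mean of the 6 libraries, was 0.40 in Control 2 and -0.41 in Zip10 cKO 3, and between -0.12 and 0.09 in the other 4. The genes differed in Zip10 cKO 1, where Fkbp4 was at -0.36, near its -0.39 in Zip10 cKO 3. Hsp90ab1, Stip1, Ptges3 and Hsp90aa1 were at -0.15, -0.08, -0.06 and 0.03 in Zip10 cKO 1. In the mean of the 5 genes, Control 2 and Zip10 cKO 3, 1 of each group, were farther out than any of the other 4 libraries. They also lie on opposite sides of the group difference (group means of 0.15 and -0.15). Control 1 and 3 were at -0.01 and 0.05, and Zip10 cKO 1 and 2 at -0.12 and 0.09, so these 4 overlapped between the groups. All 5 estimates stayed lower with any 1 library left out, but each such fit keeps Control 2, Zip10 cKO 3 or both. A difference between groups and the 2 extreme libraries therefore cannot be told apart here. The coactivators did not share this order: Control 1 was lowest for all 4, and their mean was -0.27 there, 0.14 in Zip10 cKO 3 and between -0.07 and 0.11 in the rest. The pattern was noticed in these data, and the labels give no extraction date or other batch that could be set beside it.

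**Figure D3:**
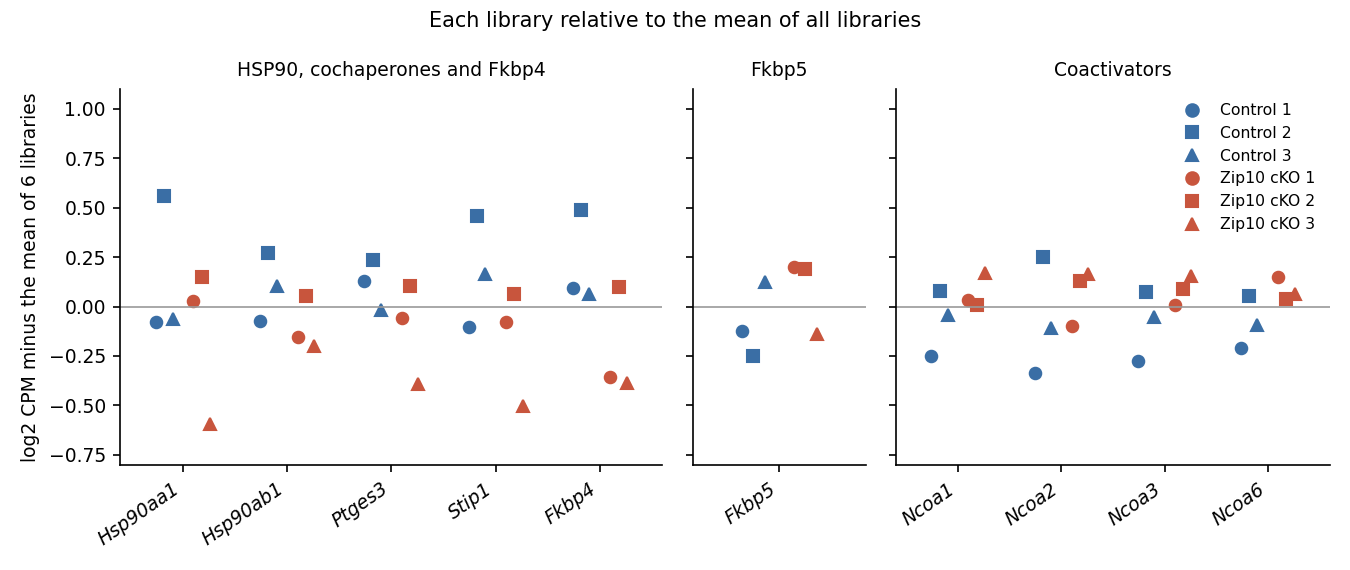
Log2 CPM of each gene in each library minus its mean over the 6 libraries (y axis), with Control in blue and Zip10 cKO in red. Control 2 (blue squares) is highest and Zip10 cKO 3 (red triangles) lowest for the 5 genes of the left panel, and Control 1 (blue circles) is lowest for all 4 coactivators.

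Promoter sequences are shown for Fkbp4 and Stip1, which shared their highest and lowest library with Ptges3 (not shown), and for Fkbp5, which did not share these. They are the 250 bases before the RefSeq gene start on GRCm38.p6, another build than that of the deposited tables, and 6 of the 10 genes had an entry (Fkbp4, Fkbp5, Stip1, Ptges3, Ncoa1 and Ncoa6). Capitals mark the paired heat shock factor motif GAANNTTC or TTCNNGAA and the CCAAT box (CCAAT, or ATTGG on the other strand), and the heat shock factor motifs read the same on both strands.

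Fkbp4, chr6:128438657-128438906, minus strand: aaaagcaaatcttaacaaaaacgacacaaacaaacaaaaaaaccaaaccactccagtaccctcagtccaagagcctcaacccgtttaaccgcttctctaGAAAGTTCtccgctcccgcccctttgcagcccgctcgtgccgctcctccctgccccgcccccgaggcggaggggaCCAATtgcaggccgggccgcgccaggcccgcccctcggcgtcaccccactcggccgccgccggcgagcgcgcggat

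Stip1, chr19:7040027-7040276, minus strand: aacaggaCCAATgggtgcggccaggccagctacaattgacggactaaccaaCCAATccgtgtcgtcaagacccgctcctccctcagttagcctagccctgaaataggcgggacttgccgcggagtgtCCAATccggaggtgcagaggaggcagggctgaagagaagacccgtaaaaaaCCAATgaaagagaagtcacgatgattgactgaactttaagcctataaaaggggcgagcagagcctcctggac

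Fkbp5, chr17:28486150-28486399, minus strand: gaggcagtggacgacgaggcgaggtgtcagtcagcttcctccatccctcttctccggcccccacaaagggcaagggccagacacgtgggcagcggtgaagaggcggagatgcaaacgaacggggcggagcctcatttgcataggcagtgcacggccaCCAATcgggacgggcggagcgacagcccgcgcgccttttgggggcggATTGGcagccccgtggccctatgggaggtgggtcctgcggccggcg

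The paired heat shock factor motif occurred in 1 of the 6 promoters, that of Fkbp4 (GAAAGTTC, starting 151 bases before the gene start), and in 12.8% of the 32851 promoter entries counted. Entries of 1 chromosome were left out of that count. CCAAT boxes numbered 4 in Stip1, 2 in Fkbp5, 1 in Fkbp4 and 0 in Ptges3, Ncoa1 and Ncoa6. Of the entries counted, 33.8% held at least 1. Ptges3, with the same highest and lowest library as Fkbp4 and Stip1, thus held neither motif. The core of the palindrome bound by steroid receptors, ACANNNTGT, which is its own reverse complement, was in none of the 6 and in 5.84% of the entries counted. A match is a run of letters and not a bound site.

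The wider HSP90 and HSP70 machinery leaned the same way as the 5 chaperones, whose median log2 fold change was -0.27, but with a smaller median. Of 27 listed genes, all were tested and 0 were called by the quasi-likelihood test of edgeR in either direction. Of these genes 0 had an unadjusted p under 0.05, 23 estimates were lower and 4 higher, and their median was -0.12 on the log2 scale. Single estimates ran from -0.51 to 0.14. The mean of the 27 was 0.21 in Control 2 and -0.21 in Zip10 cKO 3, and between -0.07 and 0.07 in the other libraries. The full order with Control 2 highest and Zip10 cKO 3 lowest was shared by 4 of the 27: Hspa8, the constitutive cytosolic HSP70, its J-domain partner Dnaja1, the HSP70-interacting protein gene St13, and Ahsa1, which stimulates the HSP90 ATPase. Of the genes with the smallest p, Chordc1, an HSP90-binding protein, was at 98.4, 159 and 115 CPM in the controls and 84.3, 109 and 85.0 CPM in Zip10 cKO 1, 2 and 3, a log2 fold change of -0.42 ± 0.19 (SE). All 3 Zip10 cKO libraries lay below all 3 controls for 2 of the 27, beside 5.78% of all genes. These were Ttc4, a tetratricopeptide cochaperone, at 30.1, 37.4 and 38.0 against 39.1 to 44.5 CPM (log2 fold change -0.25 ± 0.12), and Tomm34, which binds HSP70 and HSP90, at -0.11 ± 0.10. St13 gave -0.21 ± 0.12 and Hspbp1, a nucleotide exchange factor of HSP70, -0.28 ± 0.17. Chordc1, Ttc4, St13 and Hspbp1 had an edgeR quasi-likelihood adjusted p between 0.747 and 0.760.

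**Figure D4:**
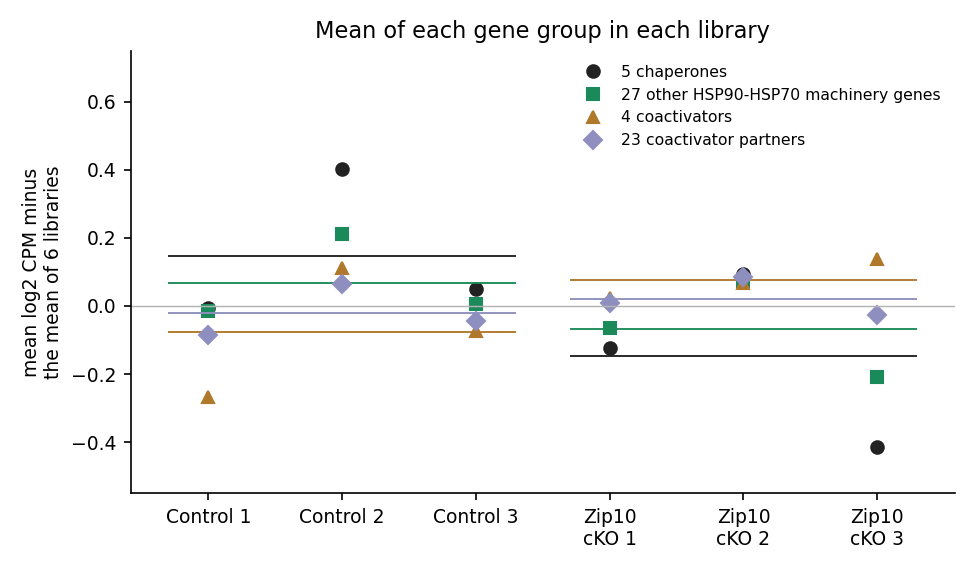
Mean log2 CPM of 4 gene groups in each library minus the mean of the 6 libraries (points), with lines at the group means. The 5 chaperones and the 27 other machinery genes are both highest in Control 2 and lowest in Zip10 cKO 3, and the coactivators are lowest in Control 1.

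The p160 coactivators and Ncoa6 had estimates of similar size on the other side of 0. Ncoa1 (SRC-1) was at 39.4, 49.5 and 45.6 CPM in the controls and at 48.0, 47.2 and 52.7 CPM in Zip10 cKO 1, 2 and 3. Ncoa2 (SRC-2) was at 55.6, 83.5 and 65.2 CPM and at 65.6, 76.9 and 78.9 CPM. Ncoa3 (SRC-3) was at 49.7, 63.2 and 58.0 CPM and at 60.6, 64.1 and 67.0 CPM. In each of the 3, Control 1 was the lowest library and Control 2 lay within or above the Zip10 cKO range. Ncoa6 was at 59.5, 71.2 and 64.5 CPM in the controls and at 76.1, 70.4 and 71.7 CPM in Zip10 cKO 1, 2 and 3, and only Control 2 overlapped the Zip10 cKO libraries. The log2 fold changes were 0.14 ± 0.11, 0.12 ± 0.15, 0.17 ± 0.11 and 0.16 ± 0.10 (SE, n = 3 each) for Ncoa1, Ncoa2, Ncoa3 and Ncoa6, with edgeR quasi-likelihood adjusted p from 0.760 to 0.873. The upper ends of their intervals lay between 1.31-fold and 1.38-fold.

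These estimates moved with gene length and with Control 1. Ncoa1, Ncoa2 and Ncoa3 fall in the longest of 5 equal classes of all genes by length, where log2 fold changes had a median of 0.11, against -0.11 in the shortest class. With the length trend of each library removed, the log2 fold changes were 0.02 for Ncoa1, -0.03 for Ncoa2, 0.03 for Ncoa3 and 0.10 for Ncoa6, whereas the 5 chaperones stayed between -0.41 and -0.19. Without Control 1 they were 0.05, -0.02, 0.07 and 0.09. Ncoa2 therefore had no stable sign. The ratio of Ncoa2 to Ncoa1 in TPM was 1.03, 1.38 and 1.11 in the controls and 1.02, 1.38 and 1.41 in Zip10 cKO 1, 2 and 3, a difference in log2 ratio of 0.11 (exact two-sided permutation p = 0.8, adjusted p = 0.8 over 4 ratios) that was -0.01 in CPM.

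Ncoa3 was the member whose picture depended most on the scale. In deposited TPM it was at 8.59, 14.6 and 11.3 in the controls and at 15.82, 15.03 and 15.54 in Zip10 cKO 1, 2 and 3, so that all 3 Zip10 cKO libraries lay above all 3 controls, as they did for 9.52% of the genes tested. On log2(TPM + 1) its difference was 0.43 (limma adjusted p = 0.774), beside 0.17 from the counts. In that fit Ncoa3 was the 1 member with an unadjusted limma p under 0.05, as were 1317 of 20953 genes. The same held with a pseudocount of 0.1. The weighted transcript length that RSEM assigned to Ncoa3, a mean over its 5 annotated transcripts by their estimated shares, was 7082, 5857 and 6801 bases in the controls and 5400, 5629 and 5913 bases in Zip10 cKO 1, 2 and 3. TPM divides by a length derived from this one, so the shorter lengths in the Zip10 cKO libraries raise their TPM. Whether the transcript mix differs could not be tested from gene totals. The expected count of Ncoa3 was a whole number in only 4 of the 6 libraries. In the rest, RSEM split some of its reads with other genes, as for Hsp90aa1.

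**Figure D5:**
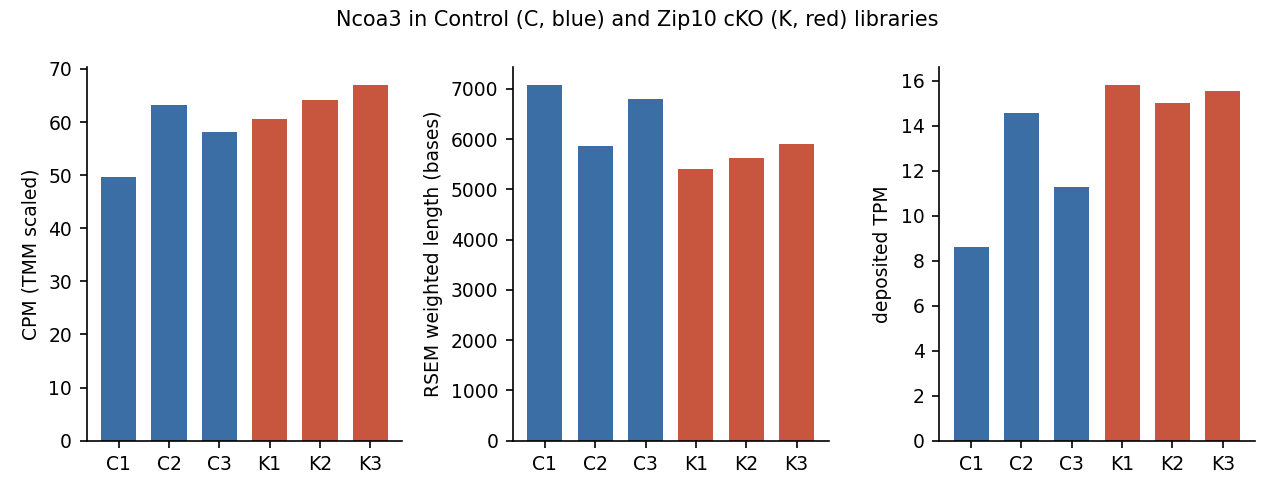
Ncoa3 in Control 1 to 3 (C, blue) and Zip10 cKO 1 to 3 (K, red) as CPM, as the weighted transcript length of RSEM in bases and as deposited TPM, all axes starting at 0. The groups overlap in CPM (49.7 to 63.2 against 60.6 to 67.0) and in length, but not in TPM (8.59 to 14.57 against 15.03 to 15.82).

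Partners of the coactivators gave log2 fold changes from -0.16 to 0.23, with a median close to 0. Of 23 listed genes, all tested, 0 passed in edgeR's quasi-likelihood test, 0 had an unadjusted p under 0.05, 17 estimates were higher and 6 lower, and the median log2 fold change was 0.04. Med1, the Mediator subunit that binds nuclear receptors, was at 70.0, 80.2 and 75.3 CPM in the controls and at 87.0, 86.3 and 84.3 CPM in Zip10 cKO 1, 2 and 3. The groups did not overlap, as also for Ncoa7, so that 2 of 23 partners lay above all controls beside 6.93% of all genes. The log2 fold change of Med1 was 0.19 ± 0.09 (SE, edgeR quasi-likelihood adjusted p = 0.747), and that of Ncoa7 0.09 ± 0.09. Ep300, a histone acetyltransferase recruited by p160 proteins, gave 0.23 ± 0.14, and Kat2a, another acetyltransferase, and Ncoa5 gave -0.14 ± 0.10 and -0.12 ± 0.10. Among 12 corepressor genes, which hold receptors inactive, 7 estimates were higher and 5 lower with a median of 0.01, and 0 passed in the same test. Lcor, a ligand-dependent corepressor, was at 7.65, 16.01 and 12.75 CPM in the controls and at 17.4, 16.8 and 18.8 CPM in Zip10 cKO 1, 2 and 3, a log2 fold change of 0.55 ± 0.24. The deacetylases Hdac2 and Hdac3 gave -0.15 ± 0.09 and -0.16 ± 0.11. Lcor lay above all controls and Hdac2 below them in all 3 Zip10 cKO libraries.

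The receptors that use these proteins differed by less than their error. Pgr was at 144, 245 and 177 CPM in the controls and at 176, 178 and 160 CPM in Zip10 cKO 1, 2 and 3, with Control 2 highest as for the chaperones. Its log2 fold change was -0.14 ± 0.18 (SE, edgeR quasi-likelihood adjusted p = 0.865). Esr1 gave 0.04 ± 0.13, the glucocorticoid receptor gene Nr3c1 0.01 ± 0.12 and the mineralocorticoid receptor gene Nr3c2 0.41 ± 0.32, and of the 6 listed receptor genes Esr2 was not tested for want of counts.

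Fkbp5 is one of several genes that steroid receptors induce in many tissues. Of 10 others of this kind, 7 estimates were higher and 3 lower (median 0.20 on the log2 scale), and 0 passed in edgeR's quasi-likelihood test. Zbtb16, a zinc finger repressor, was at 26.0, 32.2 and 39.0 CPM in the controls and at 41.4, 41.0 and 40.2 CPM in Zip10 cKO 1, 2 and 3, and Per1, a clock gene, at 62.5, 64.9 and 64.2 CPM and at 74.95, 66.99 and 84.00 CPM. Both lay above all controls in all 3 Zip10 cKO libraries, which makes 2 of the 10 beside 6.93% of all genes, and their log2 fold changes were 0.34 ± 0.15 and 0.24 ± 0.10. Dusp1, a phosphatase of MAP kinases, gave 0.39 ± 0.20. Mt2, a metallothionein that is also induced by zinc, went the other way at -0.65 ± 0.18, with an unadjusted p of 0.0071 and all Zip10 cKO libraries below all controls (1 of the 10, beside 5.78% of all genes). These 4 genes had an edgeR quasi-likelihood adjusted p of 0.747 to 0.750.

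The genes whose profile over the 6 libraries was nearest to that of Fkbp4, by the root mean square difference of centred log2 CPM among 10761 other genes with a mean of at least 10 CPM, were Zbtb12 (0.071), ENSMUSG00000121092, which matched no symbol (0.093), and Selenos, a selenoprotein of the endoplasmic reticulum (0.093). The nearest to Fkbp5 were Ednra, an endothelin receptor (0.029), Tmem237 (0.049) and D030028A08Rik (0.051). Ednra was at 59.4, 54.1 and 67.2 CPM in the controls and at 70.8, 73.7 and 58.2 CPM in Zip10 cKO 1, 2 and 3, the same order of high and low libraries as Fkbp5 except that Zip10 cKO 2 and not Zip10 cKO 1 was highest.

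Marker genes of several cell types also leaned between the groups. In whole tissue, fewer cells of a type and less RNA per cell cannot be told apart. The summed TPM of 12 epithelial markers was 1001 to 1431 in controls and 846 to 1231 in Zip10 cKO libraries, with 11 of 12 estimates lower (median log2 fold change -0.29). That of 10 stromal markers was 4194 to 5832 and 6465 to 7574 TPM, with 8 of 10 higher and a median of 0.45. Smooth muscle markers summed to 4184 to 8063 and 7071 to 11100 TPM (9 of 9 higher, median 0.55), macrophage markers to 260 to 339 and 296 to 722 TPM (8 of 8 higher, median 0.62), lymphocyte markers to 44.8 to 56.9 and 66.4 to 92.3 TPM (7 of 7 tested higher, median 0.66), red blood cell markers to 357 to 629 and 637 to 779 TPM (5 of 5 higher, median 0.32) and endothelial markers to 497 to 617 and 458 to 538 TPM (8 of 8 lower, median -0.16). Smooth muscle transcripts were thus abundant in all 6 libraries, although the series design calls the tissue endometrium. No epithelial, stromal, smooth muscle, endothelial, macrophage or red blood cell marker was at 0 counts in any library. None of these sums was highest in Control 2 and lowest in Zip10 cKO 3, the order of the chaperones, and the part of cell composition in the members' estimates was not tested.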

How the data were processed

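The authors deposited one gene table per library with expected counts from RSEM, in which reads shared by genes are split, and TPM, per the file headers. The columns for transcript length, in bases, are the authors' too. The submitters' processing notes name the build GRCm39 (mm39) and STAR 2.7.10a, fastp 0.23.2, RSEM 1.3.3, edgeR 3.38.4 and R 4.2.1. For annotation release and strand setting, nothing is given in the sources used here. Of 56748 gene IDs, 52073 (91.8%) matched a symbol in GENCODE M21, which belongs to another build and was used for names only.

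Expected counts were rounded, filtered by filterByExpr (minimum count 10, minimum total 15), scaled by TMM and compared with the quasi-likelihood test of edgeR 4.0.16 (robust) in R 4.3.3. P-values were adjusted by Benjamini-Hochberg over all 16737 genes that remained, with 0.05 as the threshold. The SE was derived from the F statistic, and intervals are 95% intervals. Profiles over libraries use log2 CPM with a prior count of 3. Ratios used an exact permutation test. Alternatives were DESeq2 1.42.0, limma 3.58.1 (voom, and TPM with pseudocounts of 1 and 0.1 for genes above 0.1 TPM in at least 3 libraries), other scalings and filters, the replicate block, removal of a length trend (loess, span 0.5) and leaving out each library. The edgeR quasi-likelihood fit, and none of the others, was tested on simulated counts. Of 50 genes changed at each size, it recovered 36% at 1.5-fold and 74% at 2-fold. No 2 libraries of a group agreed within sampling noise (chi-square over its degrees of freedom, 19.6 or more). Promoters came from RefSeq on GRCm38.p6.

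The members and lists were chosen with earlier results of these data known. Named genes were the 10 members, Slc39a10, tested steroid receptors, up to 4 genes with the smallest p in each other pathway list, and the 3 nearest to Fkbp4 and to Fkbp5. Hspa8, Dnaja1, Ahsa1, Tomm34 and Ncoa7, and the FKBP genes of the closing section, were picked once their values were known. Some genes that the rule names are not reported here.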

Additional observations from a re-analysis of the deposited data

How the results depend on the processing

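None of the 10 members was called under any of the 16 alternatives, and their median log2 fold change ran from -0.11 to 0.03 with all 6 libraries and from -0.12 to 0.03 with 1 left out. Over all genes, the count of calls of 0 became 38 with DESeq2 (0.131% of 28970), 15 with no filter on low counts, 3 and 6 on TPM with pseudocounts of 1 and 0.1, and 0 to 2 with a library left out. limma-voom called 0, with 1066 at an unadjusted p under 0.05. The sign of a member's fold change turned in 2 of 160 alternatives, both for Ncoa2: -0.029 with the length trend removed and -0.018 without Control 1, up to 0.29 without Control 2. The Hsp90aa1 to Hsp90ab1 log2 ratio difference ran from -0.202 to 0.0756 with a library left out (0.0279 without Control 2), and that of Ncoa2 to Ncoa1 was -0.011 in CPM. The cause of these turns was not tested. With the replicate number as a block, 0 genes were called, Fkbp4 stood at -0.43 and Stip1 at -0.34 (edgeR quasi-likelihood adjusted p = 0.596 and 0.614). Both then had an unadjusted p under 0.05 in that test, as did 1354 genes in all, beside 1081 without the block. Same-numbered libraries correlated at 0.09, 0.25 and 0.19 in their deviations from the group means, and the other pairings at -0.33 to 0.12. Zip10 cKO 1 correlated more with Control 3 (0.12) than with Control 1. The labels do not say whether the numbers pair the libraries, so the numbers were not taken as pairs. With 3 libraries a group, the intervals of the members allow changes of up to 1.39-fold upward and down to 0.567-fold.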

Other observations

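Other genes of the FKBP family, taken by symbol after the members had been examined, add to the picture of the immunophilins. Of 12 genes, 11 were tested, and 0 were called at 0.05 after adjustment by the quasi-likelihood test of edgeR, with 5 estimates higher, 6 lower and 2, Fkbp2 and Fkbp3, at an unadjusted p under 0.05. Fkbp2, an immunophilin of the endoplasmic reticulum, was at 37.2, 39.1 and 43.5 CPM in Control 1, 2 and 3 and at 34.9, 34.1 and 29.4 CPM in Zip10 cKO 1, 2 and 3. Fkbp3, a nuclear immunophilin, was at 93.8, 84.9 and 77.1 CPM and at 76.0, 71.4 and 67.6 CPM. For both, all Zip10 cKO libraries lay below all controls, as for 5.78% of all genes, with log2 fold changes of -0.28 ± 0.11 and -0.25 ± 0.10 (SE, n = 3 each). Another 2 lay above all controls, beside 6.93% of all genes: Fkbp15 at 0.14 ± 0.09 and Fkbp1b, with at most 32 counts in a library, at 0.28 ± 0.28. Fkbp1a, which binds FK506 and calcium release channels, gave -0.10 ± 0.12, and Fkbp9 and Fkbp10, which fold collagen and other secreted proteins, gave 0.20 ± 0.13 and 0.20 ± 0.16. Unlike Fkbp4, neither Fkbp2 nor Fkbp3 was highest in Control 2.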
